A study of Mus musculus with 4 samples.

Results

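*Mlana*-high cells of mouse dorsal skin are the cells in which at least 3 transcripts of *Mlana* were read. *Mlana* encodes a melanosomal protein of pigment cells and was the only defining melanocyte gene among the 328 genes measured. There were 275 such cells among the 363976 skin cells with at least 10 transcripts (0.0756%), in 10 skin sections on 3 slides. The members were chosen by their measured *Mlana* counts, so their *Mlana* level is a description and is not tested. Because a single marker carries the label, the cells are named here by their rule and not as melanocytes.

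Xenium is an imaging assay that decodes individual transcripts of a chosen gene panel where they lie in a section and allots them to segmented cells. The mice were Tet-On TRE-*Pitx1*/*Krt5*-rtTA animals. *Krt5* drives the transactivator in basal keratinocytes, and doxycycline in the chow then switches on the transgene. Control littermates of the same transgenic genotype received normal chow (labelled Vehicle), and PITX1+ mice received doxycycline from the telogen phase of the hair cycle. One slide held unwounded male skin (1 Control and 2 PITX1+ sections), another unwounded female skin (2 and 2), and another male skin on day 4 after wounding (1 Control and 2 PITX1+ sections). Slide and sex cannot be told apart on the unwounded slides. The labels give no animal ages, and they give both conditions for each skin slide without saying which section is which, so that Control and PITX1+ follow the order of the sections on the slide. *Pitx1*, the gene switched on, was read at 11.2 CPM (transcripts of a gene per 1000000 transcripts of the same cells) in the male Control section and at 727 and 437 in the male PITX1+ sections. In the wounds it was at 53.8 CPM in the Control section and at 340 and 134 in the PITX1+ sections. On the female slide it did not separate the conditions (76.3 and 53.8 CPM in Control, 53.7 and 63.5 CPM in the sections labelled PITX1+), so every PITX1+ against Control value that includes the female sections rests on slide order. The female sections differed in other measures: those labelled Control held 17335 and 11778 cells, and those labelled PITX1+ 57231 and 75267.

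Melanocytes are neural crest derived cells. In mouse dorsal skin nearly all of them sit in hair follicles, where melanocyte stem cells rest in the bulge and hair germ during telogen. Mature melanocytes are rebuilt in the bulb of each growing (anagen) follicle, between the dermal papilla and the hair matrix, and pass melanosomes to the cells of the hair shaft. *Shh*, a secreted hedgehog ligand, is made by matrix cells of growing follicles. It therefore gives a landmark for the bulb that the choice of members did not use.

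*Mlana*-high cells were found mainly in 4 sections. Among unwounded sections there were 92 in male PITX1+ 1 (0.241% of its cells), 45 in male PITX1+ 2 (0.161%), 6 in female PITX1+ 1 (0.0105%) and 37 in female PITX1+ 2 (0.0492%). The male Control section held 1 (0.00788%), and the 2 female Control sections held none. A floor of 3 counts allows them shares of up to 0.0173% and 0.0255%. All 4 PITX1+ sections thus lay above all 3 Control sections, with 180 members among 198748 cells against 1 among 41797. The 95% exact binomial intervals, which cover counting error only, overlapped in part. That of female PITX1+ 1 (0.00385% to 0.0228%) overlapped all 3 Control sections. Those ran from 0.0002% to 0.0439% in male Control and up to 0.0213% and 0.0313% in the female ones. Female PITX1+ 2 (0.0346% to 0.0678%) overlapped male Control. *Shh*-high cells, those with at least 3 *Shh* transcripts, moved with the same contrast. None was found in the 3 unwounded Control sections, against 570, 526, 122 and 1130 in the PITX1+ sections, and their part in the difference was not tested. By single-cell RNA-Seq the study reports the other direction, with significantly fewer melanocytes in PITX1+ than in control skin. The measures are unlike. The study gives that result among its subtypes of neural cells, from clusters of dissociated cells. The share here is of all cells in a section, by the count of 1 gene. It states that melanocytes were not detected in its Xenium data, for want of marker genes. Why the directions differ was not tested.

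The mean share was 0.115% ± 0.105 (SD, n = 4) in PITX1+ and 0.00263% ± 0.00455 (SD, n = 3) in Control sections, a difference that the exact permutation test over sections did not separate (two-sided p = 0.171, with 0.0286 the smallest that 3 against 4 sections allow). Per area of tissue the values were 5.60 ± 5.02 and 0.0620 ± 0.107 cells per mm2 (exact permutation p = 0.0857). Without male PITX1+ 1 the differences fell from 0.113 to 0.0708 percentage points and from 5.54 to 3.33 cells per mm2. The study's legend counts as many control skins and PITX1+ mice as there are unwounded sections, but the labels tie no section to an animal, so the p-values are stated for the spread between sections. The Control sections were also shallower, with medians of 26 to 32 transcripts per cell against 37 to 87 in the PITX1+ sections. After thinning of each cell to 20 transcripts, with shallower cells left out, 14, 6, 2 and 9 cells of the PITX1+ sections and none of the 3 Control sections still had 3 *Mlana* transcripts.

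The wounds ran the other way. The wound Control section held 76 *Mlana*-high cells, 0.416% of its cells (0.328% to 0.520%) and the highest share of the 10 sections (0.220% against 0.215% in male PITX1+ 1 when cells under 10 transcripts are counted too), while the wound PITX1+ sections held 11 (0.0288%) and 7 (0.0105%). With 1 Control section against 2 there is no test of this difference, nor was its contrast with unwounded skin tested. For single-cell RNA-Seq of day 4 wounds the study prints the same rounded melanocyte share in control and PITX1+ wounds. It names only vascular and skeletal muscle cells as significantly changed. That share is of dissociated, clustered cells and is not the measure used here.

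**Figure D1:**
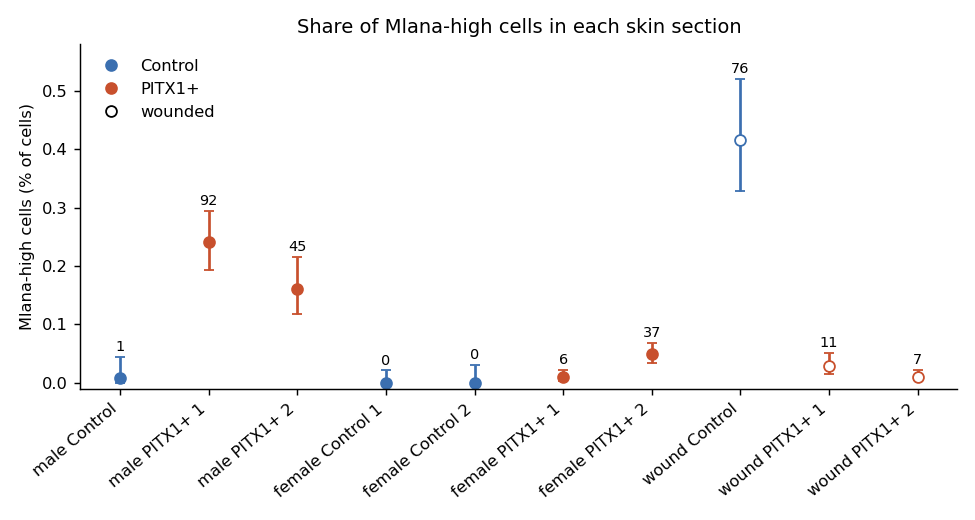
Share of *Mlana*-high cells in percent of all cells with at least 10 transcripts, for each of the 10 skin sections; points are single sections, bars 95% exact binomial intervals, numbers the counts of *Mlana*-high cells, filled points unwounded and open points wounded skin. The unwounded PITX1+ sections reach from 0.0105% to 0.241%, above 0.00788% and 0 in Control, and the wound Control section is highest at 0.416%.

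The number of *Mlana* transcripts was 3 or 4 in 150 of the members, 5 to 9 in 97 and 10 or more in 28, with 21 as the highest. Members with 10 or more came from male PITX1+ 1 (10 cells), male PITX1+ 2 (6), female PITX1+ 2 (1) and wound Control (11). *Mlana* made up 5.26% of the transcripts of the median member.

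Just outside the threshold were 257 cells with 2 *Mlana* transcripts, and just inside it 100 with 3. In the 5 sections with at least 10 members, *Cd63*, which encodes a tetraspanin that takes part in melanosome formation, was at 17886 CPM (*Mlana* left out of the total, here and in all gene levels below) in cells with 2 and at 25487 in cells with 3. *Col1a1*, the collagen of dermal fibroblasts, was at 60074 and 19811. As pooled, cells with 3 transcripts held more *Cd63* and less *Col1a1* than cells with 2.

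Below the threshold *Mlana* was read in every skin section. Cells outside the members carried 222, 233 and 310 CPM of *Mlana* in the unwounded Control sections and 107, 113, 160 and 185 in the PITX1+ sections, so this low level was higher in each unwounded Control section. It was also higher in wound Control, at 242 CPM against 107 and 46.9 in the wound PITX1+ sections, although that section had many members. In buccal mucosa it was at 5.59 CPM, with no *Mlana*-high cell among 62422 cells (a floor of 3 counts allows up to 0.00481%). Over all cells of a section, *Mlana* was at 228, 233 and 310 CPM in Control and 286, 215, 167 and 213 in PITX1+ sections, and these ranges overlap. In the wounds it was at 507 CPM in Control and 119 and 50.9 in PITX1+ sections.

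Low-level calls were also read in cells with *Col1a1*, a fibroblast collagen. In cells with at least 3 *Col1a1* transcripts outside the members, 2.13%, 1.38% and 2.48% had at least 1 *Mlana* transcript in the unwounded Control sections (medians of 33, 39 and 33 transcripts per cell). In the unwounded PITX1+ sections it was 0.473% to 1.73% (medians of 38 to 93). In *Krt5* cells of the 3 Control sections it was 0.237%, 1.15% and 1.07% (medians of 39, 71 and 69 transcripts), against 0.757%, 0.969% and 1.26% of all cells outside the members, in no common order. Cells with 1 *Mlana* transcript, pooled over the 5 sections described next, also had more *Cd63* (10400 CPM) than cells with 0 (8161). On the male, female and wounded skin slides, 54.6%, 72.6% and 55.7% of *Mlana* calls in cells outside the members reached the quality score of 20. Within members 80.3%, 86.3% and 79.8% did, though members were chosen by calls that reached it. In buccal mucosa 18.8% did. Among all gene calls, in cells or outside them, 80.7%, 87.0% and 78.2% did on the 3 skin slides and 76.6% in buccal mucosa. What the low-level calls are was not tested.

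Most *Mlana*-high cells lay beside *Shh*-high cells. Of the 274 members in sections that held any *Shh*-high cell, 213 were within 50 µm of one, 240 within 100 µm, and 34 farther away. The median distance was 16.0 µm in male PITX1+ 1, 16.6 µm in male PITX1+ 2, 18.5 µm in female PITX1+ 2, 48.5 µm in wound Control and 20.2 µm in wound PITX1+ 1. Other cells of the same sections lay at medians of 144, 167, 171, 2446 and 687 µm. The members were closer in all 5 sections, with a mean log2 ratio of -4.09 ± 1.19 (SD, n = 5), and the exact sign-flip permutation test gave two-sided p = 0.0625, the smallest that 5 sections allow. With cells of 2 *Mlana* transcripts included, the median in wound PITX1+ 1 was 375 µm in place of 20.2.

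Sections with few members were different. The 6 cells of female PITX1+ 1 lay 490 µm (median) from a *Shh*-high cell against 588 µm for other cells, and the 7 of wound PITX1+ 2 at 600 against 1100 µm. In these cells none (of 6) and 1 (of 7) was within 50 µm. The male Control member had no *Shh*-high cell in its section and an outline of 805 µm², against a median of 58.2 µm² over all members.

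**Figure D2:**
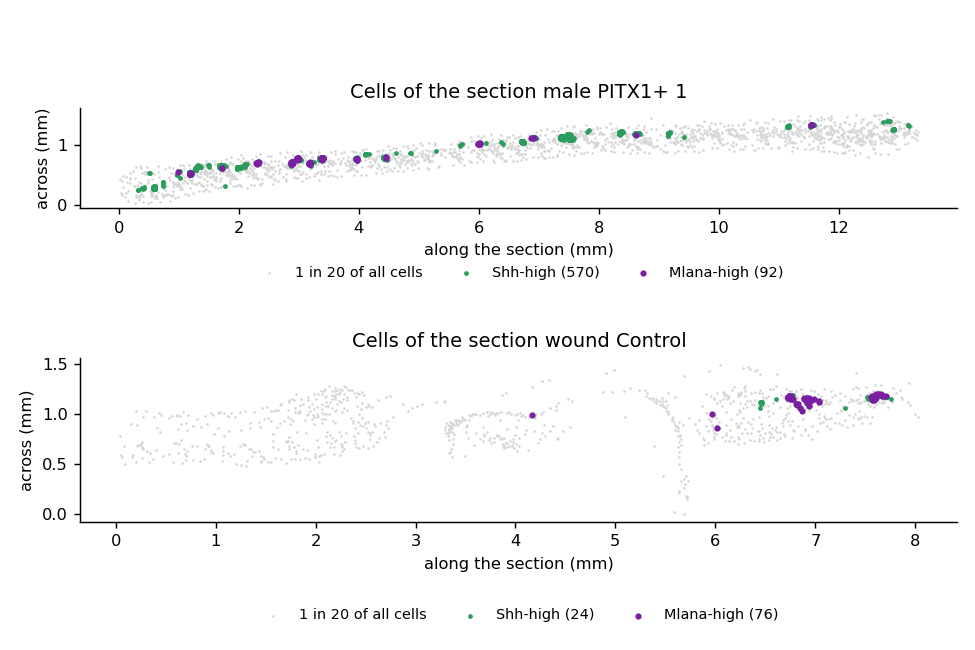
Position of *Mlana*-high cells (purple), *Shh*-high cells (green) and 1 in 20 of all cells (grey) in male PITX1+ 1 and wound Control, both axes in mm. Purple clusters sit on or beside green ones in male PITX1+ 1, and in wound Control all but 3 of the 76 *Mlana*-high cells lie in 4 groups.

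Many *Mlana*-high cells lay in groups, unequally between sections. Members joined where they were within 50 µm of each other formed 14 groups in male PITX1+ 1, with 16 cells in the largest, and all 14 had a member within 50 µm of a *Shh*-high cell. There were 15 groups in male PITX1+ 2 (largest 12), of which 11 were that close, and 19 in female PITX1+ 2 (largest 6), of which 11 were. So were 3 of the 7 groups in wound Control, with 66 of its 76 cells, and 5 of 7 in wound PITX1+ 1. In wound Control 73 of the 76 cells lay in 4 groups of 5 or more, the largest of 28 cells, while 78 of 92, 28 of 45 and 6 of 37 did in male PITX1+ 1, male PITX1+ 2 and female PITX1+ 2. Single cells made up 2 of the 14, 8 of the 15 and 12 of the 19 groups of those 3 sections. No group in wound PITX1+ 1 exceeded 3 cells, and 4 of 6 members in female PITX1+ 1 and 7 of 7 in wound PITX1+ 2 were alone.

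The converse did not hold for every patch of *Shh*-high cells. Of the patches of at least 5 *Shh*-high cells, 10 of 23 in male PITX1+ 1, 10 of 21 in male PITX1+ 2 and 10 of 38 in female PITX1+ 2 had a *Mlana*-high cell within 50 µm. In female PITX1+ 1 it was 0 of 3. Since a section 5 µm thick passes through a bulb in a single plane, a patch without a member is a statement on that plane only.

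**Figure D3:**
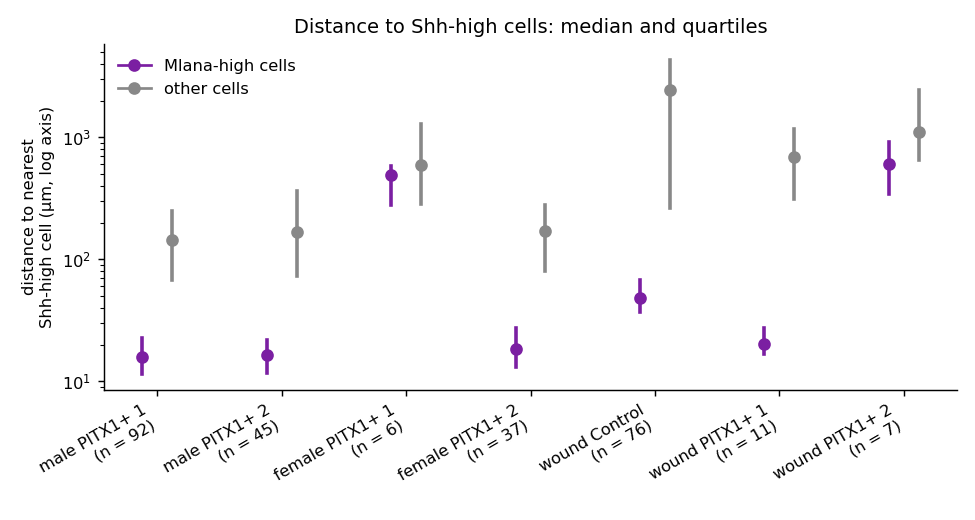
Distance in µm (log axis) to the nearest other *Shh*-high cell for *Mlana*-high cells (purple) and other cells (grey) of each section that has both kinds; points are medians, lines run from the lower to the upper quartile, and n is the number of *Mlana*-high cells. The medians of *Mlana*-high cells are 16.0 to 48.5 µm in the 5 sections with at least 10 of them, and 490 and 600 µm in female PITX1+ 1 and wound PITX1+ 2.

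The members were near *Shh*-high cells, and few were *Shh*-high themselves. *Shh* was at 0 in 253 of the 275. Of the 275, 7 had 3 or more of its transcripts, a larger share than the 2420 of all 363976 skin cells. *Shh* was also unread in most nearby cells. In the unwounded sections it was read in 6.52%, 13.3% and 8.11% of members against 19.0%, 24.7% and 20.5% nearby. In wound Control it was read in 5.26% against 5.75%, and in wound PITX1+ 1 in 18.2% against 10.2%. In the sums per section, *Shh* was at 1635, 3192, 3324, 528 and 2846 CPM in *Mlana*-high cells (male PITX1+ 1, male PITX1+ 2, female PITX1+ 2, wound Control, wound PITX1+ 1) and at 6219, 7621, 8577, 1051 and 2530 in other cells within 50 µm. It was lower in 4 of 5 sections (log2 fold change -1.40 ± 0.34 (SE), edgeR adjusted p = 0.00035), and wound PITX1+ 1 went the other way. Against all other cells of the section its log2 fold change was 1.12 (edgeR adjusted p = 0.12). *Pitx1* was rare in the members, with 2 transcripts of 29013 against 580 of 798566 in nearby cells, and did not pass the test (log2 fold change -2.66 ± 1.19, edgeR adjusted p = 0.082), lower in 3 of 5 sections.

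Cells of other follicle layers were near as well. Median distances to cells with at least 3 transcripts of *Krt75*, a keratin of the companion layer and medulla, were 6.66, 6.67, 16.3, 10.4 and 11.9 µm in the 5 sections (other cells, 55.7 to 165 µm). For *Wnt5a* they were 9.13, 7.26, 11.0, 14.4 and 8.58 µm (other cells, 99.0 to 171 µm). Cells with *Lor*, a protein of the cornified epidermis, were far, at 132 to 401 µm against 152 to 291 µm. The members lay farther from *Lor* cells than other cells did in 3 of the 5 sections.

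Which genes differed between *Mlana*-high cells and their neighbours was tested on counts summed per section, in the 5 sections with at least 10 members (261 cells). The neighbours were all other cells within 50 µm, 703 to 2237 per section. At least 1 *Mlana* transcript was read in 6.17% (male PITX1+ 1), 4.07% (male PITX1+ 2), 5.33% (female PITX1+ 2), 9.93% (wound Control) and 6.97% (wound PITX1+ 1) of them. Over all cells outside the members it was 0.663%, 1.05%, 1.28%, 1.84% and 0.817%. The part of these neighbours in the fold changes was not tested. *Mlana* was left out of the sums, which held 1054 to 11355 transcripts for the members. Of 236 genes that passed the filter on low counts, 62 differed (26.3%), with 15 higher (6.36%) and 47 lower (19.9%) in *Mlana*-high cells. All 15 higher genes were higher in each of the 5 sections, and 36 of the 47 lower genes were lower in each. The number of genes that differed was 36 without male PITX1+ 1, 36 without male PITX1+ 2, 27 without the section as a block and 139 against all other cells of the section. The median log2 fold change over all genes tested was -0.38, and values below are best read against it. A pair in parentheses below is the log2 fold change ± SE, followed where given by the edgeR adjusted p. Each SE of a fold change, here and above, was derived from the test. It is the absolute log2 fold change divided by the square root of the quasi-likelihood F statistic.

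Of the 4 genes of the neural crest and melanosome list *Cd63* and *Ptprz1* passed, both higher, against 6.36% of all genes, and none was lower, with a median log2 fold change of 1.58. The list was chosen with earlier results of these data known, so this count is a description only. *Cd63* was at 53969 CPM in the members of male PITX1+ 1, 55576 in male PITX1+ 2, 8547 in female PITX1+ 2, 37164 in wound Control and 38899 in wound PITX1+ 1. Nearby cells had 6043, 5803, 1664, 13212 and 8228. The female section was the lowest in both kinds of cell, and it alone had more *Col1a1* in members than nearby (76448 against 44533 CPM), and members lay above neighbours in each section by a log2 fold change of 2.40 ± 0.34 (SE, edgeR adjusted p = 1.25e-10).

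*Cd63* was also the most widely read gene of these. At least 1 transcript was found in 86 of 92, 45 of 45, 16 of 37, 69 of 76 and 10 of 11 members, against 36.7%, 40.5%, 9.25%, 58.1% and 44.1% of nearby cells. Median depths of members and nearby cells were 93.5 and 93 transcripts in male PITX1+ 1, 106 and 111 in male PITX1+ 2, 51 and 56 in female PITX1+ 2, 104.5 and 81 in wound Control, and 82 and 91 in wound PITX1+ 1.

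*Ptprz1*, a receptor phosphatase of glial and neural crest cells, was at 2508, 1502, 475, 1233 and 1898 CPM against 240, 488, 310, 563 and 270 (log2 fold change 1.90 ± 0.71 (SE), edgeR adjusted p = 0.030). These are few reads, 48 in all, and 1 in the female section, and the call was lost under 7 of 16 alternatives. *Ncam1*, a neural adhesion molecule, missed the threshold (1.27 ± 0.55, edgeR adjusted p = 0.075), as did *Erbb3*, the neuregulin receptor of Schwann cells and melanoblasts (-0.52 ± 0.30, edgeR adjusted p = 0.19).

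*Itgb3*, the integrin beta chain that pairs with alpha V and is known from melanocytic cells, had the largest rise of all genes tested. Its level was 3816, 1127, 6173, 1937 and 3795 CPM in the members and 172, 240, 900, 480 and 398 nearby. The groups of 5 do not overlap, and the log2 fold change was 2.83 ± 0.61 (SE, edgeR adjusted p = 4.44e-05). It was read in 13.3% to 29.7% of members and 1.70% to 4.58% of nearby cells. Of the 9 integrin genes tested, *Itgb3* was the only one higher (6.36% of all genes were) and *Itgb5* the only one lower (-0.85 ± 0.30, edgeR adjusted p = 0.022; 19.9% of all genes were), while *Itga6* and *Itgb4*, which bind epithelial cells to the basement membrane, did not pass (0.05 ± 0.42 and 0.39 ± 0.28).

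*Aldh1a3*, which makes retinoic acid, was at 19080, 16523, 5223, 15940 and 11385 CPM in the members and 5173, 5699, 1936, 2995 and 3937 nearby (log2 fold change 1.70 ± 0.28 (SE), edgeR adjusted p = 6.31e-08). The retinoic acid binding proteins *Crabp1* (0.99 ± 0.58) and *Crabp2* (-0.63 ± 0.47) did not pass.

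Further genes were higher. *Krt75* (1.51 ± 0.30, edgeR adjusted p = 6.86e-06), *Wif1*, a secreted Wnt inhibitor (1.47 ± 0.29, 8.42e-06), *Cdh3*, the P-cadherin of matrix and basal cells (1.22 ± 0.28, 0.00016), and *Lama3*, a laminin chain (1.29 ± 0.33, 0.00091), rose in all 5 sections. *Krt75* reached 32163, 24221, 13770, 19023 and 10436 CPM in the members against 9972, 4137, 3517, 12839 and 4278 nearby. *Krt75* is a keratinocyte gene. It kept its call under all 16 alternatives, among them the fit on transcripts over the nucleus only. Whether transcripts of touching cells entered the members' outlines was not itself tested.

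The rest of the 12 largest rises were *Abca8a*, a lipid transporter (2.08 ± 0.68, edgeR adjusted p = 0.012), *Pparg*, the sebocyte and fat cell regulator (1.75 ± 0.69, 0.046), *Ivl*, involucrin of the cornified envelope (1.65 ± 0.32, 3.55e-06), and *Cd44*, the hyaluronan receptor (1.03 ± 0.28, 0.0017). *Abca8a* and *Pparg* rest on 49 and 36 transcripts in the members and lost their calls under 7 and 10 of 16 alternatives. *Adam10*, the protease that cleaves Notch and other surface proteins (0.96 ± 0.29, 0.0053), *Krt23* (0.88 ± 0.27, 0.0064) and *Igf2r* (0.80 ± 0.31, 0.038) complete the 15.

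Falls were more numerous than rises. The desmosomal cadherins *Dsc1* (-2.95 ± 0.34, edgeR adjusted p = 2.53e-15), *Dsg1b* (-2.66 ± 0.49, 1.31e-06) and *Dsg1a* (-2.43 ± 0.33, 2.35e-11) fell in all 5 sections. Of the same family *Dsc2*, *Dsc3* and *Dsg4* also fell (19.9% of all genes did), while *Dsg3* (0.28 ± 0.28) and *Dsg2* (0.13 ± 0.30) did not pass; the family was put together after the values were seen. *Dsc1* was at 1090, 376, 4274, 1673 and 949 CPM in the members and 9672, 5327, 16367, 14146 and 5827 nearby, without overlap. *Krt6a*, a keratin of the companion layer and of wounds (-2.59 ± 0.39, 2.14e-09), and *Krt79*, a keratin of the infundibulum (-3.13 ± 0.44, 1.32e-10), also fell in all 5.

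*Lrrc15* (-3.83 ± 0.38, edgeR adjusted p = 5.70e-20) had the lowest p of all genes. It was at 1744, 188, 475, 352 and 0 CPM in the members and 15398, 6179, 7548, 5907 and 6821 nearby. *Sprr1a*, a cornified envelope precursor (-4.33 ± 0.74, 1.49e-07), and *Slpi*, a secreted protease inhibitor (-3.66 ± 0.70, 3.55e-06), were read 5 times each in all members. *Cnfn*, cornifelin, was not read in the members, which puts it at least 5.11-fold lower than nearby with a floor of 3 counts over the 5 sections. *Plet1* was read 3 times (6.09-fold lower, counting interval 2.07 to 29.6), *Pdgfb* 4 times (-2.60 ± 0.97, edgeR adjusted p = 0.030) and *Barx2* 13 times (-2.53 ± 0.69, 0.0017). *Plet1* lost its call under 9 of 13 alternatives and *Pdgfb* under 7 of 14.

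**Figure D4:**
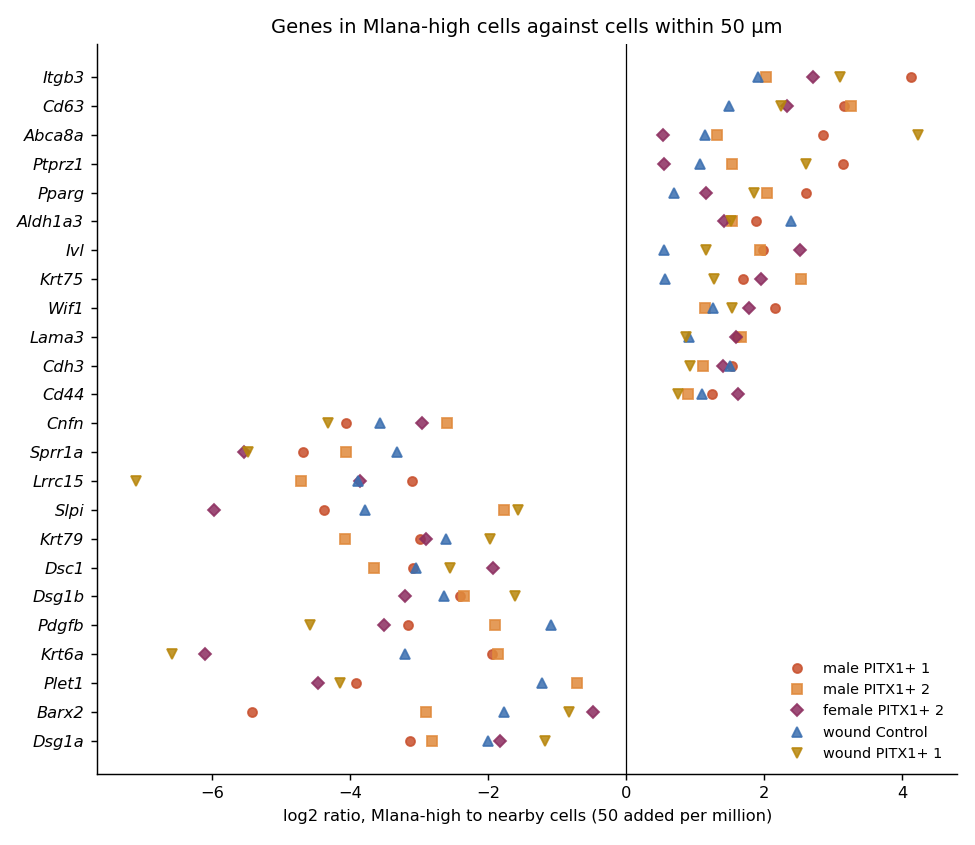
Log2 ratio of CPM, with 50 added to each, between *Mlana*-high cells and other cells within 50 µm for the 12 largest rises and 12 largest falls; each symbol is a section. Symbols of the upper genes lie right of 0 and those of the lower genes left of 0 in all 5 sections, by the rule that chose them.

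Markers of other cell types divided as follows, where 6.36% of all genes tested were higher and 19.9% lower. None of the 5 basal keratinocyte genes tested passed. *Krt5* was read in 35.1% to 86.7% of members and 47.1% to 81.7% of nearby cells. The summed level of the 5 was 29440 to 62148 CPM in members against 36996 to 83260 nearby. It was higher in members in 1 section only, wound Control (51871 against 36996). Of 5 bulge genes *Krt15* (-2.31 ± 0.36, edgeR adjusted p = 8.48e-09) and *Sox9* (-1.83 ± 0.36, 5.98e-06) fell and none rose, and the list's summed level was lower in all 5 sections (2849 to 9488 against 9250 to 22488). Of 6 hair matrix and shaft genes *Krt75* rose, and *Shh*, *Dsg4* (-1.37 ± 0.30, 6.88e-05) and *Krtap17-1* (-1.74 ± 0.66, 0.034), the last a protein of the hardening shaft, fell. Against all other cells in place of nearby ones these last 3 turned to 1.12, 1.38 and 0.28. The summed level of the 6 was higher than nearby in 4 of 5 sections and lower in female PITX1+ 2 (32764 against 42354 CPM). In male PITX1+ 1 the values were close (61818 against 61720 CPM). Without *Krt75* the sum was higher than nearby in wound Control alone and lower in each of the other sections.

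Of the 5 Schwann cell markers 2 could be tested, and *Ptprz1*, which is also on the neural crest list, alone passed; *Drp2* and *Kcna1* were read 7 and 2 times. The summed level of the 5 markers was 1761 to 5693 CPM in members against 862 to 1830 nearby, higher in all 5 sections. *Ptprz1* gave 48 of the members' transcripts and *Scn7a* 12. Without *Ptprz1* the sum was not above that of nearby cells in male PITX1+ 2, female PITX1+ 2 and wound Control. The part of these markers in the results was not tested. *Scd2* and the other sebaceous markers had a summed level of 24668 to 50507 CPM against 21807 to 30094 nearby, higher in all 5 sections, with *Pparg*, whose call was lost under most alternatives, the 1 of 3 tested that passed. None of the fibroblast (5), macrophage (4) or Langerhans cell (2) genes tested passed, and T cell and mast cell genes were too rare to test. The summed fibroblast level was 91643 CPM in members of female PITX1+ 2 against 51256 nearby, and 4252 to 19551 against 11937 to 27457 in the other 4 sections; its part in the female section's low *Cd63* was not tested. Among endothelial and smooth muscle genes *Pecam1* (-3.31 ± 1.12, edgeR adjusted p = 0.015) and *Acta2* (-2.36 ± 0.80, 0.015) were lower. *Icos* and *Flg* were at 0 in all members.

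Signalling lists were short and mixed. On the Notch list *Adam10* was higher, *Notch2* (-1.97 ± 0.32, edgeR adjusted p = 1.71e-08) and *Notch1* (-0.96 ± 0.30, 0.0071) lower, and the ligand *Jag1* did not pass (-0.08 ± 0.29). Of 7 ephrin and Eph genes tested, the receptor *Ephb3* (-2.26 ± 0.35, 3.14e-09) and the ligand *Efna3* (-1.43 ± 0.34, 0.00034) were lower and none higher. Among hedgehog genes the receptor *Ptch1*, itself a target of the pathway, did not pass (-0.40 ± 0.29), and none of 4 Wnt receptor genes did. Of 6 BMP and Id genes *Bmp4* was lower (-1.17 ± 0.33, 0.0029), and of 3 immediate early genes *Jun* (-1.20 ± 0.34, 0.003) and *Klf4* (-1.62 ± 0.33, 1.04e-05) were. Against the 19.9% of all genes that were lower, these are small counts on short lists.

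None of the 10 cell cycle genes passed (median log2 fold change 0.09), against 26.3% of all genes tested, but the sections parted. Their summed level was 25731, 48066 and 20893 CPM in the members of the unwounded sections, below the 33948, 50626 and 25450 of nearby cells in each. In wound Control it was 85425 against 40776, and in wound PITX1+ 1 58824 against 34803, above nearby cells in both. *Top2a*, needed for chromosome separation, was read in 19.6%, 22.2% and 13.5% of members of the unwounded sections and in 55.3% and 45.5% of those of the wounds. This difference between wounded and unwounded skin was not tested.

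A PITX1+ against Control comparison of genes within *Mlana*-high cells had no test, since no unwounded Control section held 10 members. In the wounds, members of the Control section and of PITX1+ 1 had *Cd63* at 37164 and 38899, *Aldh1a3* at 15940 and 11385 and *Wif1* at 10656 and 14231 CPM, with 76 and 11 cells behind them and no replicate.

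Levels of other genes differed between classes of *Mlana* count, pooled over the 5 sections. *Cd63* was at 8161, 10400, 17886, 28448, 51498 and 79242 CPM in cells with 0, 1, 2, 3 to 4, 5 to 9 and 10 or more *Mlana* transcripts. *Itgb3* was at 825, 1172, 1866, 1714, 2619 and 6806, and *Wif1* at 1495, 3516, 10786, 18234, 23858 and 14341, neither higher at every step. *Col1a1* differed in order between sections: with 5 or more it was at 1077 CPM in male PITX1+ 1 against 25267 with 0, but at 118568 against 57524 in female PITX1+ 2. *Krt75* levelled off from 3 transcripts on (24267, 22694 and 22363). The share within 50 µm of a *Shh*-high cell was 13.7%, 25.3%, 50.7%, 81.2%, 80.0% and 85.7%. Sections contributed unequally: female PITX1+ 2, where *Cd63* was low, gave 27 cells with 3 or 4 transcripts and 10 with 5 or more. Within that section *Cd63* was at 1766 CPM with 0, 2636 with 1 or 2, 7836 with 3 or 4 and 11186 with 5 or more. The classes share sections and depth and are given without a test.

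**Figure D5:**
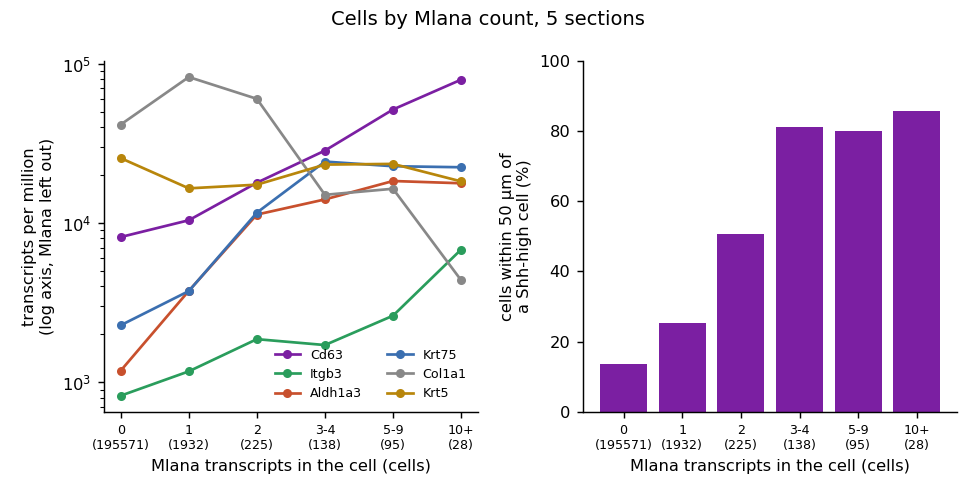
CPM of 6 genes (left, log axis, *Mlana* left out of the totals) and the percent of cells within 50 µm of a *Shh*-high cell (right), for cells grouped by their *Mlana* count and pooled over 5 sections; the number of cells is given under each class. *Cd63* is higher at every step, from 8161 to 79242, and the share near *Shh*-high cells rises from 13.7% at 0 to 81.2% at 3 or 4 *Mlana* transcripts.

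The outlines of the members had median areas of 50.5, 52.8, 68.5, 71.4 and 50.8 µm² in the 5 sections against 43.1, 40.2, 58.6, 48.0 and 51.9 µm² nearby. They were larger in 4 of 5 sections, by a mean log2 ratio of 0.28 ± 0.22 (SD, n = 5; exact sign-flip permutation p = 0.125). Calls of control codes, which belong to no gene, were 0.207 to 1.33 per 1000 transcripts in members and 0.310 to 0.880 nearby. The member rates rested on 2, 2, 3, 5 and 1 calls (male PITX1+ 1, male PITX1+ 2, female PITX1+ 2, wound Control, wound PITX1+ 1). Nearby cells had 120, 75, 79, 98 and 62. The exact permutation p was 0.812, with 0.0625 the smallest that 5 sections allow. With so few calls in members, this comparison cannot decide whether the rates differ. Whether *Mlana* calls were wrongly decoded was not tested.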

How the data were processed

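Xenium data of 3 skin slides and 1 buccal slide were used; each slide is 1 deposited sample. The authors deposited counts of transcripts and control calls per cell, without normalization, and a table of transcripts with a quality score, a position and a cell. Software and segmentation settings are not given in the sources used here; cell and nucleus outlines were not used. Transcripts scoring at least 20 were counted per cell, and the sums equalled the deposited counts in 100% of cells.

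Sections were cells joined within 100 µm (200 µm for wounds), of at least 2000 cells with at least 10 transcripts, in order of position. Skin sections held 446626 to 5560931 transcripts. Distances leave out the cell itself; area is that of occupied 50 µm squares. Counts were summed per section and kind of cell and fitted with edgeR 4.0.16 in R 4.3.3 (section as block, TMM, filterByExpr, quasi-likelihood test, Benjamini-Hochberg over all genes tested, threshold 0.05), or DESeq2 1.42.0. Other tests were two-sided exact permutations over sections (Python 3.11.15, scipy 1.17.1). Named genes were *Mlana*, *Shh*, *Pitx1*, list members, and the 12 largest changes each way that passed and kept direction in every section; others named complete a count and were chosen after their values were seen. Results for 1 list are given only in part here. Members and lists were chosen with earlier results of these data known.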

Additional observations from a re-analysis of the deposited data

Results flagged for a closer look

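The PITX1+ minus Control difference in the share of *Mlana*-high cells had opposite signs in unwounded and wounded skin. It was 0.113 percentage points over 4 PITX1+ and 3 Control unwounded sections. Each PITX1+ section lay above each Control section at the main settings, though not under every alternative given below. Over 2 PITX1+ wounds and 1 Control wound it was -0.396, both PITX1+ wounds lying below. Per mm2 the differences were 5.54 and -17.2 cells. Whether the contrast differs between wounded and unwounded skin was not tested, and wound and slide cannot be told apart.

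The summed level of the 10 cell cycle genes, as the mean log2 ratio of *Mlana*-high to nearby cells with 50 CPM added, was -0.25 in the 3 unwounded sections (-0.40 to -0.07) and 0.91 in the 2 wounded sections (0.76 and 1.07). All unwounded sections lay below 0 and both wounded ones above it; this difference was not tested. No section stood apart from the rest of its group in the 29 sets of 4 or 5 values checked by Dixon's criterion, which chance alone meets in about 1 of 20 sets.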

How the results depend on the processing

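The differences in share and density kept their sign under the thresholds, quality limits, cell filters and areas tried. The order of single sections in share did not hold throughout. With transcripts of any quality male Control (0.0158%) lay above female PITX1+ 1 (0.0122%). With at least 20 transcripts per cell it did so too (0.0120% against 0.00902%), and over the nucleus both were at 0. The share difference of 0.113 percentage points became 0.178 with at least 2 *Mlana* transcripts, 0.0593 with at least 5, 0.0418 over the nucleus and 0.0205 after thinning, and the density difference of 5.54 cells per mm2 became 9.41, 2.79 and 1.98 under the first 3. With the wounded slide and permutation within slides they turned to -0.0579 percentage points (exact permutation p = 0.63) and -2.08 cells per mm2 (0.759). Permutation within the unwounded slides, chosen after seeing the data, gave exact permutation p = 0.0556 for both, the smallest that relabelling within these slides allows. Leaving out each section gave 0.0708 to 0.148 percentage points and 3.33 to 7.20 cells per mm2; without male PITX1+ 1 the values were 0.0708 and 3.33. The distance to *Shh*-high cells had mean log2 ratios of -4.32 to -3.70 with a section left out, and -2.39 with members of at least 2 *Mlana* transcripts (7 sections, exact permutation p = 0.0156; wound PITX1+ 1 went from -5.09 to -0.87). Control calls differed by -0.264 per 1000 with at least 5 *Mlana* transcripts, by -0.0648 against all other cells, and by -0.153 to 0.126 with a section left out, the lowest without female PITX1+ 2. Cell area had a log2 ratio of 0.41 with at least 2 *Mlana* transcripts (exact permutation p = 0.0312), -0.078 within 100 µm, -0.70 against all other cells and 0.20 to 0.36 with a section left out.

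The 62 genes became 99 against cells within 100 µm, 139 against all other cells, 27 without the section block, and 36 to 62 with a section left out (36 without male PITX1+ 1 and 36 without male PITX1+ 2). DESeq2 gave 68. Of the 24 genes with the largest changes, 13 passed under every alternative in which they could be fitted, and none turned. Against all other cells *Bmp4* (1.09), *Dlx3* (1.91), *Dsg4* (1.38), *Jag1* (1.30), *Krtap17-1* (0.28), *Mt4* (1.57), *Notch1* (0.34), *Pi16* (-1.63) and *Shh* (1.12) turned in sign, and within 25 µm *Col6a1* (0.16); the cause was not tested. *Pparg* lost its call under 10 of 16 alternatives, *Abca8a* and *Ptprz1* under 7 each, *Plet1* under 9 of 13 and *Pdgfb* under 7 of 14. The test of PITX1+ against Control within *Mlana*-high cells and its alternatives were not run, for want of Control sections with 10 members. No paired analysis was possible by the numbers in the labels because they name slides and pair no sections; PITX1+ and Control were compared within slides as given above, and *Mlana*-high and nearby cells were paired by section. Counts of 1 to 5 transcripts limit the lowest genes. The unwounded Control sections were shallower, and the part of depth in their few *Mlana*-high cells was not tested beyond the thinning above.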
